A study of Homo sapiens with 15 samples.

Results

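FOXA1 binding was described here on chromosomes 4, 13 and 18, the 3 autosomes with the fewest protein-coding genes per megabase. Every peak of a deposited list that lay on those chromosomes was taken, with no selection by score, width or response to a treatment. Over 12 peak lists this gave 34201 of 249079 peak calls, and a site called in several lists is counted once in each. All shares below are of autosomal peaks, and the other 19 autosomes are the background.

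FOXA1 is a pioneer transcription factor of the forkhead family. It can bind its motif in nucleosomal DNA, where most factors cannot, and it opens enhancers for nuclear receptors, among them the androgen receptor in prostate cells. Gene-poor chromosomes hold long intergenic stretches, much of them late replicating and in compact chromatin, and chromosome 18 in particular tends to lie near the nuclear periphery.

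The cells were 22Rv1, an established human prostate carcinoma line, and FOXA1 was mapped by chromatin immunoprecipitation and sequencing (ChIP-seq). The 6 parental lists came from cells given, for 3 h, DMSO at 0.1%, PladB, or 20 µM of either WX-02-43 or WX-02-23, or from a FOXA1 knockdown by small interfering RNA (siFOXA1) and its control transfection (siControl). The PladB label gives 100 nM and the shared protocol gives 10 nM. WX-02-23 and WX-02-43 are covalent small molecules, and C258A replaces the FOXA1 cysteine named in the allele by alanine. The 6 engineered lists came from cells that all stably expressed the Y36C form of PHF5A, a splicing factor subunit, and carried a doxycycline-inducible FOXA1, either wild type (WT) or C258A. Each engineered line had 3 lists: uninduced with DMSO (noDox), induced with DMSO, and induced with 20 µM WX-02-23 for 3 h. The labels name no deletion of the endogenous FOXA1 gene in either line, and they do not say whether a line was 1 clone.

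With 1 library in each group, differences between conditions have no replicate check, and neither a test nor a p-value is given. The intervals given are at 95% and cover only counting error, as if neighbouring peaks were independent of each other, which they may not be. The read depth of the libraries is unknown, and the lists held between 3018 peaks (siFOXA1) and 34119 peaks (siControl). The siFOXA1 list stood apart in length and in where its peaks lay, and results that rest on it are given with and without its most crowded 1 Mb bins. Input libraries were not analysed here, so the DNA content of each chromosome in the parental and engineered lines was not measured.

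The label gene-poor was checked on counts of RefSeq protein-coding genes (GRCh38.p14). Chromosome 18 had 270 such genes, or 3.42 per 1 Mb bin that could hold peaks, the lowest of the 22 autosomes. Chromosome 13 had 338 genes and 3.48 per bin, and chromosome 4 had 770 genes and 4.01 per bin, the next lowest. Together the 3 chromosomes held 7.21% of the autosomal genes on 13.1% of the bins, 368 bins in all. The other autosomes held 7.26 genes per bin.

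In parental cells the gene-poor chromosomes held almost as many FOXA1 peaks as their length would give. The DMSO list had 3699 peaks there, 12.5% of its 29506 autosomal peaks (12.2 to 12.9), of which 2033 were on chromosome 4, 985 on chromosome 13 and 681 on chromosome 18. The share was 0.958 times the share of bins. The siControl list had 4011 peaks there (12.2%, 11.8 to 12.6) and the PladB list 3925 (12.3%, 11.9 to 12.6). Set against gene number rather than length, the DMSO list held 2.68 peaks per protein-coding gene on the gene-poor chromosomes and 1.45 on the others. In WT cells with doxycycline and DMSO these values were 3.72 and 1.46, and in the same C258A list they were 1.60 and 0.612. The chromosomes were chosen for few genes, 3.745 against 7.265 per bin. Equal numbers of peaks per bin would thus already give more peaks per gene there.

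The lists of cells treated with either covalent molecule were shorter, with nearly the same share on chromosomes 4, 13 and 18. The WX-02-43 list held 2228 peaks there (12.7%, 12.2 to 13.2), and the WX-02-23 list 2103 (12.7%, 12.2 to 13.2). The share with WX-02-23 was 0.13 points above that with DMSO (-0.50 to 0.77), and that with WX-02-43 was 0.15 points above it (-0.47 to 0.77). Between the molecules the share differed by -0.019 points, WX-02-23 minus WX-02-43 (-0.72 to 0.69). All 3 intervals included 0, and none reached a change of 1 point.

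After induction of FOXA1 the gene-poor chromosomes held more of the list than in any parental list other than the knockdown. WT cells without doxycycline had 1128 peaks there, 13.4% of the list (12.7 to 14.2), and with doxycycline and DMSO they had 5126, 16.5% (16.1 to 16.9). The share was higher by 3.08 points (2.22 to 3.90). C258A cells had 1773 peaks there without doxycycline (14.3%, 13.7 to 14.9) and 2209 with doxycycline and DMSO (16.9%, 16.3 to 17.6). The share was higher by 2.59 points (1.70 to 3.48), so the line with the changed cysteine showed a shift of the same direction and of overlapping interval.

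With WX-02-23 the share in induced cells stayed at that level. WT cells with doxycycline and WX-02-23 had 4070 peaks on the gene-poor chromosomes, 16.1% of the list (15.7 to 16.6), which was 0.43 points below the list without WX-02-23 (change -0.43, -1.04 to 0.19). C258A cells with WX-02-23 had 3479 peaks there, 17.3% (16.8 to 17.8), a change of 0.38 points (-0.45 to 1.21). The highest share was thus that of C258A cells with WX-02-23, which lay 1.18 points above WT cells with WX-02-23 (0.49 to 1.88). Without the molecule, C258A lay above WT by 0.37 points (-0.39 to 1.14), an interval that includes 0.

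**Figure D1:**
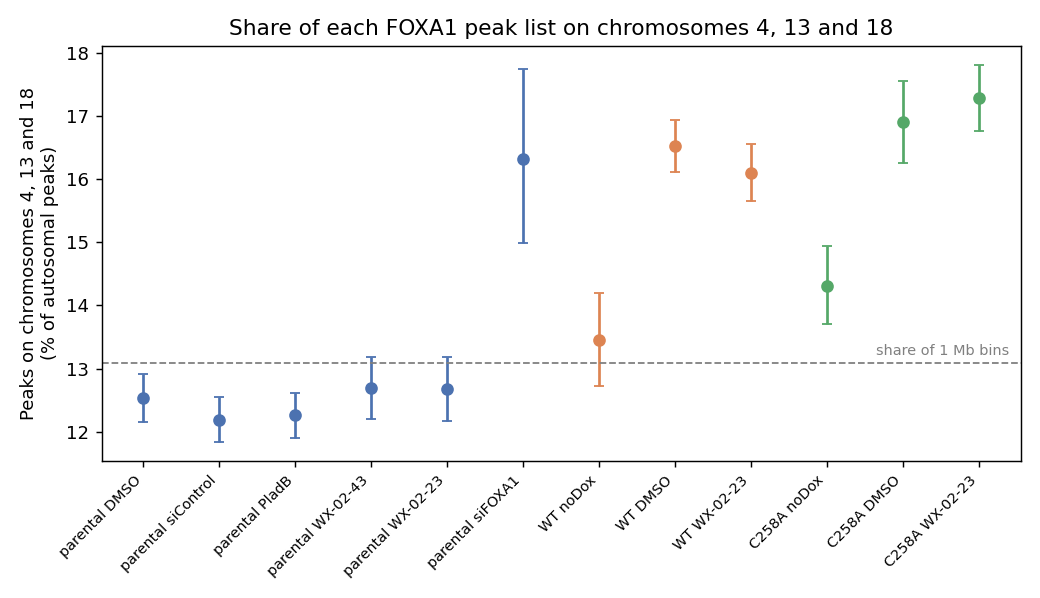
Peaks on chromosomes 4, 13 and 18 as a percent of the autosomal peaks of each of the 12 lists (points, with 95% Wilson intervals as bars; the vertical axis does not start at 0), against their 13.1% share of the 1 Mb bins (dashed line). The parental lists other than siFOXA1 lie between 12.2% and 12.7%, and the 4 lists of induced cells lie between 16.1% and 17.3%.

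In the induced lists the excess over the share of bins was present from the weakest to the strongest peaks. Each list was cut into 10 equal classes by the deposited score, which ranks peaks within a list and whose definition is not given in the sources used here. In the parental DMSO list the gene-poor chromosomes held between 12.03% and 12.9% of every class. In WT cells with doxycycline and DMSO they held between 15.8% and 17.9% of every class, and in the same C258A list between 15.6% and 18.1%. The ranges of the induced lists did not overlap that of the parental list.

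The order was similar at equal list length. When each list was cut to its 3018 strongest peaks, the share of chromosomes 4, 13 and 18 divided by their share of bins was 0.952 for parental DMSO, 0.945 for siControl and 0.974 for WX-02-23. It was 1.06 for WT cells without doxycycline, and it was 1.31 with doxycycline and DMSO and 1.20 with WX-02-23. In C258A cells it was 1.08 when uninduced, 1.29 when induced with DMSO and 1.31 when induced with WX-02-23. At this length all engineered lists lay above 1, the 4 induced ones farther than the uninduced ones. The whole siFOXA1 list, which sets the length, also lay above 1 (1.25), while the other 5 parental lists lay below it.

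Peaks per 1 Mb bin gave the same picture on an absolute scale. With parental DMSO a bin of the gene-poor chromosomes held 10.1 ± 4.86 peaks (mean and SD over 368 bins) and a bin of the other autosomes 10.6 ± 5.93 (2443 bins), a ratio of 0.952. WT cells without doxycycline held 3.07 ± 2.35 against 2.97 ± 2.37, a ratio of 1.03. With doxycycline and DMSO the same line held 13.9 ± 8.10 against 10.6 ± 8.05, a ratio of 1.31. The spread between bins was wide in every list, and the groups of bins overlapped.

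In C258A cells the ratio of bin means was 1.11 without doxycycline, where bins of the gene-poor chromosomes held 4.82 ± 3.19 peaks. With doxycycline and DMSO they held 6.003 ± 4.64 against 4.45 ± 4.37 elsewhere, a ratio of 1.35. With WX-02-23 they held 9.45 ± 6.26 against 6.82 ± 5.90, a ratio of 1.39, while in WT cells with WX-02-23 they held 11.1 ± 6.51 against 8.69 ± 6.39, a ratio of 1.27. Bins elsewhere held close to their number without doxycycline in C258A cells (4.35 ± 3.20), so their mean moved little.

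Chromosomes 4, 13 and 18 did not behave alike. Among the 22 autosomes, ordered by peaks per bin from the highest, chromosome 13 was at place 11 with parental DMSO (10.2 peaks per Mb) and at place 2 in WT cells with doxycycline and DMSO (15.0). Chromosome 4 was at place 7 with parental DMSO (10.6 per Mb) and at place 3 in those WT cells (14.4). Chromosome 18, the poorest in genes, was at place 19 (8.62 per Mb) and place 10 (11.6). For chromosome 18 most of this change lay between the cell lines, since in WT cells without doxycycline it was already at place 11. Chromosomes 4 and 13 were at places 6 and 10 in that list, so most of their change lay within the WT line. In C258A cells chromosome 4 was at place 2 without doxycycline and 3 with doxycycline and DMSO, chromosome 13 at 4 and 2, and chromosome 18 at 10 and 11. Chromosome 7, which is not gene-poor, held place 1 in all 6 engineered lists, so a high density there was not particular to gene-poor chromosomes.

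**Figure D2:**
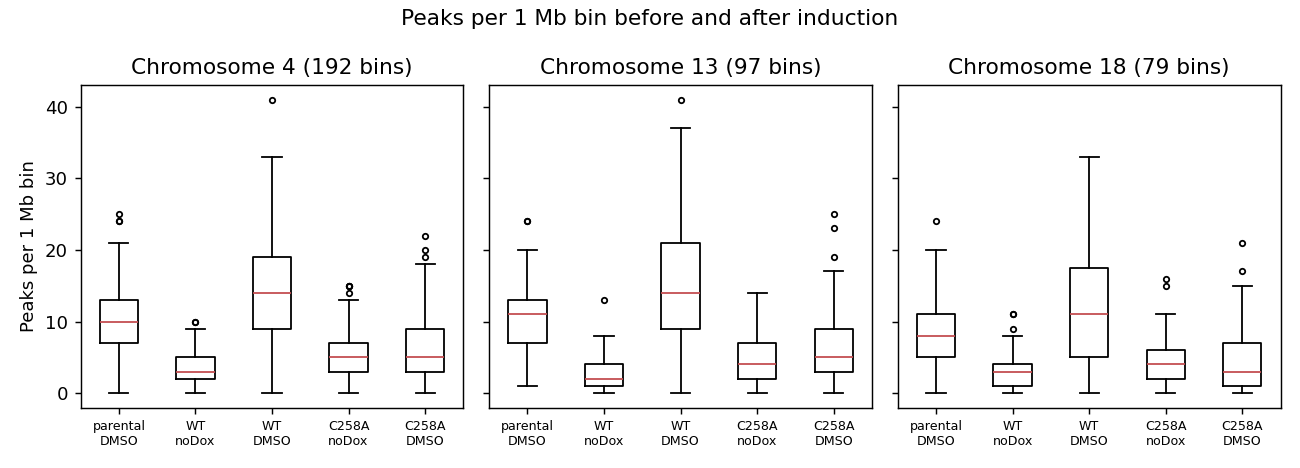
Peaks per 1 Mb bin on chromosomes 4, 13 and 18 (boxes from the lower to the upper quartile, red line at the median, whiskers to the farthest bin within 1.5 times the box, circles beyond) in 5 lists. The boxes for WT with doxycycline and DMSO lie highest on each chromosome, with single bins of up to 41 peaks, while C258A boxes with and without doxycycline overlap.

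The ratio of peak numbers with and without doxycycline was largest on chromosome 13 in both engineered lines. In WT cells it was 5.16 on chromosome 13, 4.47 on chromosome 4 and 4 on chromosome 18, places 1, 2 and 5 of 22, and over the 3 together it was 4.54 against 3.57 on the other autosomes. In C258A cells it was 1.37, 1.25 and 1.08, places 1, 3 and 8, and together 1.25 against 1.02. The lowest ratio in both lines was that of chromosome 19, the most gene-rich autosome, with 1.84 in WT and 0.386 in C258A cells.

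Across the 22 autosomes the ratio was lower where genes per bin were higher. The correlation was Pearson's r = -0.80 and Spearman's rho = -0.80 in WT cells, and r = -0.83 and rho = -0.72 in C258A cells. It is a description over chromosomes of single libraries, which share their list and their cells and differ in base composition, so it carries no p-value. Without chromosome 19 it was r = -0.79 in WT and r = -0.78 in C258A cells, and over the 19 other autosomes alone it was r = -0.81 and rho = -0.72 in WT, and r = -0.82 and rho = -0.66 in C258A cells. The same direction was thus seen with and without chromosomes 4, 13 and 18. A ratio that was lower where genes were denser was not particular to induction: for WX-02-23 against DMSO in parental cells it had r = -0.65 and rho = -0.64, while for PladB against DMSO the sign was positive (r = 0.54, rho = 0.73). For WX-02-23 against DMSO in induced cells the sign was also positive, with r = 0.65 and rho = 0.49 in WT, and r = 0.43 and rho = 0.13 in C258A cells. Peaks per bin, a level and not a ratio, had r = 0.058 with genes per bin for parental DMSO, -0.48 for WT and -0.60 for C258A cells without doxycycline, and -0.74 and -0.72 with doxycycline and DMSO.

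**Figure D3:**
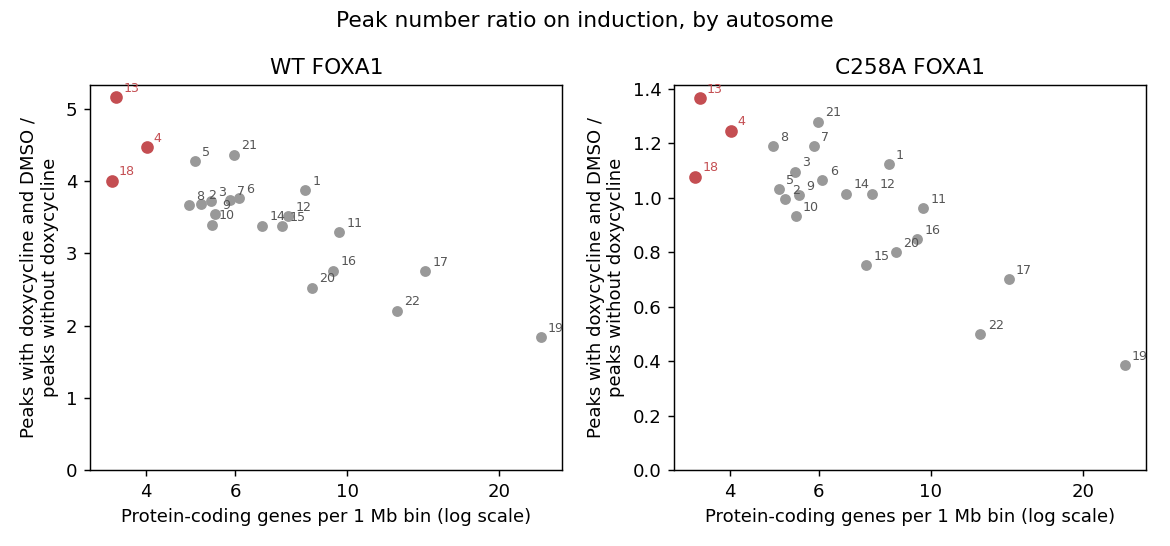
Ratio of the peak number with doxycycline and DMSO to that without doxycycline (vertical axis, linear from 0) against protein-coding genes per 1 Mb bin (horizontal axis, log scale), 1 point per autosome, in WT (left) and C258A cells (right), with chromosomes 4, 13 and 18 in red. Chromosome 13 is the highest point in each panel (5.16 and 1.37) and chromosome 19 the lowest (1.84 and 0.386).

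Sites were followed from list to list by an overlap of at least 1 bp. A control peak was kept if a peak of the second list overlapped it and lost otherwise, and a peak of the second list was gained if no control peak overlapped it. The share of all autosomal peaks lost or gained in the same comparison is given as the background.

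After induction of WT FOXA1 the gained share was higher on the gene-poor chromosomes than elsewhere. Gained here means not called in the list without doxycycline, which held 8575 peaks against 31735 with doxycycline and DMSO. Some gained sites were sites of parental cells, since 1586 of the 5126 peaks there overlapped a parental DMSO peak. Of the 5126 peaks there with doxycycline and DMSO, 4286 were gained (83.6%, 82.6 to 84.6), against a background of 80.3% of all autosomal peaks and 79.7% on the other autosomes. The difference was 3.97 points (2.82 to 5.07), and no other autosome had a higher share than the 3 together (67.6% to 83.2%). Chromosome 13 had the highest gained share of all autosomes with 84.5%, chromosome 4 was next with 83.7%, and chromosome 18 was at place 5 with 81.9%. Of the 1128 peaks called without doxycycline, 849 were kept (75.3%) and 279 were lost, against a background of 26.3% lost, and the kept share differed from the other autosomes by 1.84 points (-0.95 to 4.47).

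After induction of C258A FOXA1 the difference in the gained share was of the same size. Of 2209 peaks with doxycycline and DMSO, 1534 were gained (69.4%, 67.5 to 71.3) against a background of 66.2% and 65.5% on the other autosomes, a difference of 3.96 points (1.81 to 6.05). Here chromosomes 4 (70.9%) and 13 (69.8%) were at places 2 and 3, while chromosome 18 was at place 15 with 64.2%, below the background. The other autosomes ran from 51.6% to 71.8%, and 1 of them had a higher share than the 3 together. Of 1773 peaks without doxycycline, 679 were kept (38.3%, 36.1 to 40.6) and 1094 were lost, with a background of 64.3% lost. The kept share was 3.06 points above that of the other autosomes (0.65 to 5.52).

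Most sites gained with C258A were also gained with WT. The reverse could hardly hold, since 4286 sites were gained with WT and 1534 with C258A. On the gene-poor chromosomes 1362 of the 1534 sites gained with C258A (88.8%) overlapped a site gained with WT, and 1355 of the 4286 gained with WT (31.6%) overlapped one gained with C258A. The shares on the other autosomes were 90.1% and 30.8%. A site already called in C258A cells without doxycycline could not count as gained with C258A. The lower share of the WT sites is thus not by itself a difference between the lines. Chromosomes 4, 13 and 18 held 17.2% of the sites gained with WT (16.7 to 17.7) and 17.7% of those gained with C258A (17.0 to 18.6), but 13.7% and 15.4% of the kept ones. The gene-poor chromosomes thus had a larger share of the sites absent without doxycycline than of those present in both lists.

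The sites of induced cells were also less often sites of parental cells on the gene-poor chromosomes. Of the 5126 peaks of WT cells with doxycycline and DMSO, 1586 overlapped a parental DMSO peak (30.9%), against 36.6% on the other autosomes, a difference of -5.66 points (-7.04 to -4.25). In the same C258A list the shares were 36.5% and 41.1%, a difference of -4.57 points (-6.76 to -2.34). Single other autosomes ran from 29.94% to 52.7% in the WT list and from 30.58% to 50.25% in the C258A list, so low shares were not particular to these chromosomes. Without doxycycline the WT shares were the same, 95.6% on both sets of chromosomes. The C258A shares without doxycycline were 91.4% and 93.0%, a difference of -1.59 points (-3.07 to -0.28), so a smaller gap was there before induction. Since most uninduced peaks lay at parental sites, the differences in induced cells are not separate evidence from the gained shares.

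Most megabases of the 3 chromosomes held more peaks after WT induction, and a smaller part of them after C258A induction. In WT cells 346 of the 368 bins had more peaks with doxycycline and DMSO than without, 5 had fewer, and 40 bins without a peak before held at least 1. In C258A cells 185 bins had more and 139 fewer, 11 were newly filled and 16 emptied. Single bins differed widely in the size of the change. The bins with most peaks in WT cells with doxycycline and DMSO, chosen for that count, are given first. On chromosome 4, the bin from 102000001 to 103000000 held 8 peaks in WT cells without doxycycline and 41 with doxycycline and DMSO, and in C258A cells 15 and 16. On chromosome 13, the bin from 94000001 to 95000000 held 13 and 41 in WT cells, and 14 and 25 in C258A cells. On chromosome 18, the bin from 64000001 to 65000000 held 3 and 33 in WT cells, and 5 and 17 in C258A cells. With parental DMSO these bins held 19, 19 and 7 peaks.

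The bins with most parental DMSO peaks give another view. The bin with most parental DMSO peaks on chromosome 4, from 141000001 to 142000000, held 25 there, 10 in WT cells without doxycycline and 16 with doxycycline and DMSO. On chromosome 13 the bin from 24000001 to 25000000, which shared the highest parental DMSO count of that chromosome, held 24, 7 and 15, and that of chromosome 18, from 55000001 to 56000000, held 24, 11 and 25. The chromosome 13 bin from 94000001 to 95000000 was also the fullest of that chromosome in the parental WX-02-23 list, with 16 peaks, so full bins could be the same in parental and induced cells.

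WX-02-23 removed parental peaks from the gene-poor chromosomes at the rate seen elsewhere. Of the 3699 parental DMSO peaks, 1767 were kept (47.8%, 46.2 to 49.4) and 1932 were lost, against a background of 52.8% lost. The kept share was 0.66 points above that of the other autosomes (-1.06 to 2.39), whose values ran from 38.8% to 51.0%. Of the 2103 peaks with WX-02-23, 320 were gained (15.2%, 13.7 to 16.8) against a background of 15.3%, a difference of -0.15 points (-1.74 to 1.55). The losses were spread over the chromosomes, since 336 of the 368 bins had fewer peaks with WX-02-23 and 8 had more.

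WX-02-43 left more of the parental peaks. It kept 2072 of the 3699 (56.0%, 54.4 to 57.6) and 1627 were lost, against a background of 44.6%, and 127 of its 2228 peaks were gained (5.70%) against a background of 5.97%. The differences from the other autosomes were 0.67 points in the kept share (-1.05 to 2.37) and -0.31 points in the gained share (-1.28 to 0.80). Set directly against WX-02-43, the WX-02-23 list lacked 726 of 2228 peaks of the gene-poor chromosomes, against a background of 32.5%, and 605 of its 2103 peaks (28.8%) were absent with WX-02-43, against a background of 28.6%. Kept and gained shares differed from those elsewhere by -0.11 points (-2.22 to 1.94) and 0.20 points (-1.84 to 2.30). These comparisons share the parental DMSO list or each other's lists, so they are not separate evidence.

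PladB and siControl kept most parental peaks, and both had a smaller share of gained peaks on the gene-poor chromosomes than elsewhere. With PladB 3264 of the 3699 were kept (88.2%) and 435 were lost, against a background of 11.7%. Of its 3925 peaks 680 were gained (17.3%, 16.2 to 18.5) against a background of 19.3%, which was -2.31 points from the other autosomes (-3.55 to -1.01), and 18 of the 19 others had a higher share. With siControl 3250 were kept (87.9%) and 449 were lost, against a background of 11.9%. Of its 4011 peaks 774 were gained (19.3%, 18.1 to 20.6) against a background of 21.4%, a difference of -2.36 points (-3.65 to -1.02), and 17 of the 19 others had a higher share. Both values were set against the same DMSO list, which was shorter than either, so they share whatever is particular to it.

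In induced WT cells WX-02-23 removed slightly more on the gene-poor chromosomes, within counting error. Of 5126 peaks 3061 were kept (59.7%, 58.4 to 61.1) and 2065 were lost, against a background of 39.1%. The kept share was -1.45 points from that of the other autosomes (-2.92 to 0.017), which just includes 0, and 16 of the 19 others had a higher share. Of 4070 peaks with WX-02-23, 970 were gained (23.8%) against a background of 24.4%, a difference of -0.69 points (-2.10 to 0.76).

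In induced C258A cells WX-02-23 went with more peaks, on the gene-poor chromosomes as elsewhere. Of 2209 peaks 2019 were kept (91.4%, 90.2 to 92.5) and 190 were lost, against a background of 9.16%, and the difference from the other autosomes was 0.67 points (-0.68 to 1.90). Of 3479 peaks with WX-02-23, 1461 were gained (42.0%) against a background of 41.2%, a difference of 0.9995 points (-0.79 to 2.81). By bin, 320 of 368 held more peaks with WX-02-23 and 9 fewer, whereas in WT cells 61 held more and 262 fewer. The opposite direction of the 2 lines was thus seen across the length of the 3 chromosomes.

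C258A and WT lists were also compared directly. Of the 5126 WT peaks with doxycycline and DMSO, 3103 had no C258A counterpart, against a background of 60.9%, and 2023 did (39.5%), which was 0.49 points from the other autosomes (-0.97 to 1.96). Of the 2209 C258A peaks 169 had no WT counterpart (7.65%, 6.61 to 8.83) against a background of 6.34%, a difference of 1.58 points (0.44 to 2.84). With WX-02-23, 1661 of the 4070 WT peaks lacked a C258A counterpart, against a background of 43.1%, and 2409 had one (59.2%, 57.7 to 60.7), which was 2.69 points above the other autosomes (1.03 to 4.33). Of the 3479 C258A peaks 1070 had no WT counterpart (30.8%, 29.2 to 32.3) against a background of 28.6%, a difference of 2.63 points (0.96 to 4.32). Chromosomes 4, 13 and 18 thus held a larger part of both the shared and the C258A sites with WX-02-23, and other single autosomes reached 61.9% and 31.2%.

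**Figure D4:**
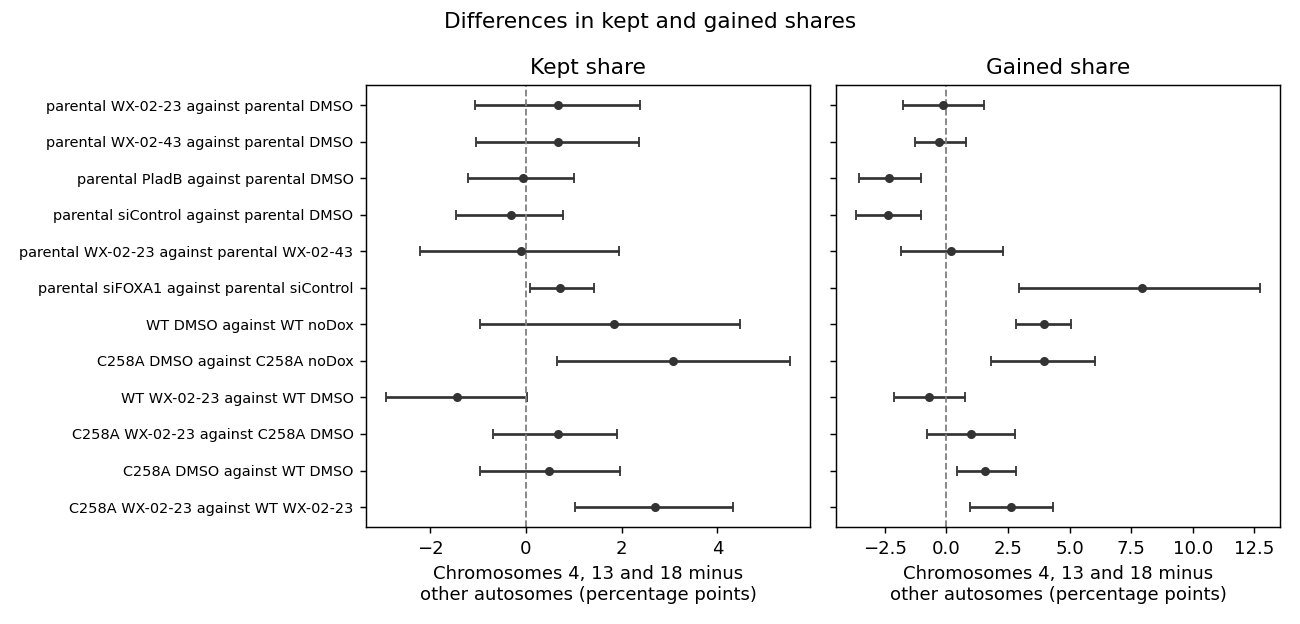
Kept share (left) and gained share (right) on chromosomes 4, 13 and 18 minus that on the other autosomes, in percentage points (points, with 95% Newcombe intervals as bars), for 12 comparisons of 2 lists. The gained share was higher by 3.97 points with induced WT and 3.96 with induced C258A FOXA1, and lower by 2.31 and 2.36 points with PladB and siControl, whose values lie left of 0.

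Knockdown of FOXA1 removed nearly every site. Of the 4011 siControl peaks on the gene-poor chromosomes 172 were kept (4.29%, 3.70 to 4.96) and 3839 were lost, against a background of 96.3%. The kept share was 0.71 points above that of the other autosomes (0.087 to 1.42), where single chromosomes ran from 1.41% to 5.23%, but with siControl cut to the length of the siFOXA1 list it was -1.80 points from it. In all, 161 bins that held siControl peaks held none in the siFOXA1 list. The siFOXA1 list had 450 peaks on chromosomes 4, 13 and 18, 16.3% of its autosomal peaks (15.0 to 17.7), and 280 of these were gained (62.2%, 57.7 to 66.6) against a background of 55.6%.

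That excess lay on chromosome 4 and in few places. Chromosome 4 held 311 of the 450 peaks, chromosome 13 held 78 and chromosome 18 held 61. The bin of chromosome 4 from 9000001 to 10000000 alone held 81 siFOXA1 peaks and 2 in each of the other 5 parental lists, the bin from 49000001 to 50000000 held 40, and the bin from 132000001 to 133000000 held 19. Over all autosomes 23 bins held more than 10 siFOXA1 peaks. Without these bins the gene-poor chromosomes held 310 siFOXA1 peaks, 14.2% of the list (12.8 to 15.7), and the gained share was -3.01 points from that of the other autosomes (-8.94 to 2.99), where with them it was 7.93 points above (2.94 to 12.7). The kept share was 0.94 points above that of the others without these bins (0.33 to 1.64).

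Peaks of chromosomes 4, 13 and 18 were as strong as those elsewhere and slightly narrower. With parental DMSO the median deposited score was 227.9 on the gene-poor chromosomes and 228.6 on the others, and 49.9% of the members lay above the list's median (48.3 to 51.5). With induced WT FOXA1 and DMSO the medians were 195.2 and 192.1, and with induced C258A and DMSO 165.9 and 165.3. The median width with parental DMSO was 665 bp against 688 bp, and 46.8% were wider than the median (45.2 to 48.4). The median was lower than elsewhere in all 11 lists other than siFOXA1, where it was 503.5 bp against 490 bp. Chromosomes differed among themselves by more than this, since the medians of the other autosomes ran from 656 to 745 bp with parental DMSO.

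Few sites of the gene-poor chromosomes were called under every condition. Of the 3699 parental DMSO peaks there 385 were called in all 11 lists other than siFOXA1 (10.4%), against 8.64% on the other autosomes, a difference of 1.77 points (0.76 to 2.85). In all 12 lists 10 were called (0.270%), against 0.496% on the other autosomes, a difference in the opposite direction. Within parental cells 1440 (38.9%) were called in each of the other 4 lists without knockdown, and 222 (6.002%) in none of them, against 38.4% and 6.12% on the other autosomes. Of the 2009 called with siControl, PladB and WX-02-43, 569 were absent with WX-02-23 (28.3%), against 29.0% elsewhere. Of the 1683 called with siControl, PladB and WX-02-23, 243 were absent with WX-02-43 (14.4%), against 14.8% elsewhere, so fewer sites were lacking with WX-02-43 alone on both sets of chromosomes.

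The strongest peaks give the range of behaviour at single sites. They are named by position (hg19), with the deposited score in a list, which is a value within that list only. An hg19 genome and annotation were not used here, so neither their sequences nor their nearest genes are given. The highest score with parental DMSO was 3206.53 on chromosome 4 (57487506 to 57489166), the peak ranked 3 of 30557, and the site was called in every list except siFOXA1. On chromosome 13 the site from 25807180 to 25808829 scored 3100 with parental DMSO, a value that several peaks of each list share, and was called in all 12 lists, with 94.6 in siFOXA1. On chromosome 18 the site from 64541789 to 64543021 scored 3170.53 and was called in all lists except siFOXA1. A second site of chromosome 13, from 82448074 to 82448876, scored 3100 in each of the 11 lists without knockdown and 522.1 in siFOXA1, the highest-scoring kept peak of that chromosome.

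Strong sites could still be absent with WX-02-23. Among DMSO peaks that WX-02-23 cells lacked and the siControl, PladB and WX-02-43 lists all had, the highest score was 1538.85 on chromosome 4 (69190277 to 69191333). It was called in WT cells without doxycycline and with doxycycline and DMSO, not with WX-02-23, and in all 3 C258A lists. In induced C258A cells it scored 133.9 with DMSO and 97.9 with WX-02-23, where the lowest score of the list was 90.01. On chromosome 13 the site from 54284555 to 54285813 (1183.18) was called in no WT list. In C258A cells it was called without doxycycline (229.2) and, near the lowest score, with WX-02-23 (95.41). On chromosome 18 the site from 47522778 to 47523691 (940.4) was called in all 6 engineered lists, and the site from 21430878 to 21432801 (829.9) in none. The strongest sites lost in parental cells thus differed among themselves in engineered cells.

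Some sites were called in parental cells with WX-02-23 and in no other parental list without knockdown. There were 197 on the gene-poor chromosomes, 9.37% of the WX-02-23 list there and 8.69% elsewhere, a difference of 0.68 points (-0.59 to 2.07). The highest scored 353.4, rank 4627 of the 17217 peaks of that list, on chromosome 4 (179015532 to 179016409). It was called in all engineered lists except WT without doxycycline and scored 1620.74 in WT cells with doxycycline and DMSO. The next on that chromosome, from 140739199 to 140739872 (285.4), was called in no other list. The highest of chromosome 13, from 62648889 to 62649422 (308.7), and of chromosome 18, from 71211063 to 71211775 (326.5), were also called in induced WT cells with WX-02-23. The chromosome 13 site was called in C258A cells with WX-02-23 as well (107.6), and the chromosome 18 site in induced WT cells with DMSO (179.4).

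Some sites separated WT from C258A cells. Of the peaks of induced WT cells with DMSO, 310 (6.05%) were also called in both induced C258A lists and not in WT cells with WX-02-23, against 5.47% elsewhere, a difference of 0.58 points (-0.11 to 1.31). The highest, on chromosome 18 (26602679 to 26603860), scored 1547.92 and was called in no parental list and in neither list without doxycycline. In induced WT cells with WX-02-23, 809 peaks (19.9%) were in neither WT cells with DMSO nor an induced C258A list, against 20.9% elsewhere (difference -1.04 points, -2.36 to 0.33). The highest of these on chromosome 4, from 65270503 to 65271029 (604.6), was called in no other list. By contrast that of chromosome 18, from 77378372 to 77380959 (715.2), was also called with parental WX-02-23 (1031.75) and in 4 other lists.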

How the data were processed

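FOXA1 ChIP-seq peaks of 22Rv1 cells were analysed from 12 lists, 1 per library. Per the submitters' processing notes the build was hg19 and the tools included Bowtie2 and bcl2fastq. The peak names carry the prefix of MACS. Caller version, threshold and control are not given in the sources used here. The deposited score of each peak is the authors' own, ran from 90 upwards and was used only to rank peaks within a list. The 3 inputs were not analysed here, and read depth is unknown.

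Peaks were assigned to 1 Mb bins by midpoint, from the first to the last bin of a chromosome with a peak in any list. Shares carry Wilson intervals and differences Newcombe intervals, both at 95% (numpy 2.4.6). Correlations were computed with scipy 1.17.1. Between 187 and 1222 peaks per list on X and Y were left out. The 12 comparisons used an overlap of 1 bp. The overlap and comparison steps were checked on a simulated list made from the parental DMSO list. Alternatives were reciprocal overlap, equal list length, the upper 50% by score, 5 Mb bins and leaving out each chromosome, and, chosen after seeing the data, leaving out crowded bins.

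From each chromosome 9 peaks were chosen (27 in all, of which the text names part): the 2 highest-scoring DMSO peaks, the 2 highest lost with WX-02-23 and called in the other parental lists without knockdown, the 2 highest with WX-02-23 alone, and the highest gained in WT only, lost in WT only and kept after knockdown. Chromosomes and lists were chosen with earlier results of these data known. The gene table is of GRCh38.p14, so it gave gene numbers only, and planned work on sequence and neighbouring genes was not run.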

Additional observations from a re-analysis of the deposited data

Results flagged for a closer look

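WX-02-23 against DMSO was compared in parental, induced WT and induced C258A cells, and the difference between chromosomes 4, 13 and 18 and the other autosomes did not have the same sign in each. The share of the list on the gene-poor chromosomes changed by 0.13 points in parental, -0.43 in WT and 0.38 in C258A cells. The kept share differed from that of the other autosomes by 0.66, -1.45 and 0.67 points, and the gained share by -0.15, -0.69 and 0.9995 points, in the same order. With 1 library a line the difference between lines was not tested, and each of these 9 intervals included 0.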

How the results depend on the processing

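Of 333 alternative values for 72 results, 303 stayed within the interval or spread of the main value, 25 moved beyond it, and 5 turned a value whose interval lay clear of no difference to the other direction. Values whose interval already included no difference could change sign in any of these and are not among the 5. All 24 densities stayed within. For the share divided by the share of bins, leaving out chromosome 4 gave 0.902 for parental DMSO, 0.890 for siControl, 0.877 for PladB, 0.882 for WX-02-43, 0.892 for WX-02-23 and 0.845 for siFOXA1, the last a change of direction. Leaving out chromosome 18 gave 0.990 for DMSO, 0.969 for PladB, 1.36 for siFOXA1, 1.32 for WT with doxycycline and DMSO, 1.28 with WX-02-23, 1.37 for C258A with doxycycline and DMSO and 1.40 with WX-02-23. Without chromosome 13 siFOXA1 gave 1.39, and without crowded bins 1.08. WT with doxycycline and DMSO gave 1.31 at the length of the shortest list. At that length the percent of peaks above the median score was 48.0 for PladB, 47.2 for WX-02-23 and 51.7 for C258A without doxycycline, and the percent above the median width was 42.7 for WX-02-43, 43.4 for WX-02-23, 49.7 for WT with doxycycline and DMSO and 49.3 with WX-02-23. Among the upper 50% by score the gained difference was -2.78 points for WX-02-23 against DMSO, -2.17 against WX-02-43 and -3.38 in WT cells. For the knockdown the kept difference was -1.80 points at equal length, and the gained difference was -0.34 with reciprocal overlap of 50%, -3.21 without chromosome 4 and -3.01 without crowded bins. The cause was not tested. The gained difference on induction stayed positive in each of its 9 alternatives, from 3.46 to 4.92 points for WT and 2.26 to 5.03 for C258A. No paired analysis was possible because each group had 1 library. Read depth is unknown, so an uncalled site may be one below the caller's threshold.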
